A study of Mus musculus with 28 samples.

Results

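The ADAM genes encode membrane proteins with a disintegrin and a metalloprotease domain. Members were all H3K27ac peaks assigned to a gene symbol made of Adam, digits and at most 1 letter, alone or together with other genes; the related Adamts genes were left out. The rule took 517 of the 471458 peaks called in 12 libraries, between 17 and 89 peaks a library, and they named 27 of the 34 ADAM genes in the RefSeq gene table. The genes were split into 21 sperm ADAMs, which are known mainly from male germ cells, and 12 somatic ADAMs, which are known from other tissues. Adam7, known from the epididymis, was kept apart.

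H3K27ac, acetylation of lysine 27 of histone H3, marks active promoters and enhancers. It was mapped by ChIPmentation, a chromatin immunoprecipitation in which a transposase adds the sequencing adapters, in germ cells from testes of C57BL/6 mice. Thy1+ spermatogonia, which include undifferentiated cells, and c-Kit+ spermatogonia, which are differentiating, came from mice at postnatal day 7, either wild type (WT) or with a knockout of Scml2 (KO), the gene of a germline Polycomb protein. Pachytene spermatocytes (PS) and round spermatids (RS) came from adult Scml2 KO mice, and PS and RS of WT mice were not analysed here for H3K27ac. Each of the 6 groups had 2 libraries. Another 16 input libraries, of chromatin that was not precipitated (8 groups of 2), had peaks of their own. They were used here only to look for peaks at the same places, and the H3K27ac values were not corrected by them here. Stage and age went together, so the 8 spermatogonial and the 4 adult libraries differ in both, and these cannot be told apart. The labels do not say whether replicates came from separate animals, so p-values measure the spread between these libraries only.

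ADAM proteins are made as inactive precursors. Many somatic members cut the outer parts of growth factors, cytokines and receptors off the cell surface, whereas others, such as Adam11, Adam22 and Adam23, lack protease activity and bind neuronal surface proteins. Sperm ADAMs are processed during spermatogenesis and epididymal transit and form complexes on the sperm surface: loss of Adam1a, Adam2 or Adam3 leaves sperm unable to pass into the oviduct or to bind the zona pellucida.

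How deeply the libraries were read is unknown. Adult H3K27ac libraries held 63322 to 73316 peaks and spermatogonial ones 17877 to 36362, without overlap. Input libraries held 359 to 1192. The background height used by the peak caller, a relative indicator of depth, was 0.564 to 1.62 in H3K27ac libraries and 0.777 to 0.944 in inputs. The value given for each promoter is the authors' fold enrichment, the height of the highest summit plus 1 over the background plus 1, in a peak within 1 kb of the gene's listed start. A promoter without such a peak was not called, which does not show that the mark was absent. In bulk samples, fewer cells with the mark and less acetylation per cell cannot be told apart. Promoters of the 4 round spermatid markers were called in all 4 adult libraries and, of the spermatogonial libraries, only Spaca1 was called, in Thy1+ WT replicate 1. Of 11 somatic testis cell markers, 2 to 7 were called in each library, with summed fold enrichments of 15.7 to 52.7 in spermatogonia and 30.3 to 72.0 in adult cells; Cyp17a1 and Adgre1 were called in none. The part of somatic cells in the values at somatic ADAM genes was not tested. The Thy1 promoter was not called in any library, Thy1+ cells included. Zbtb16, another Thy1+ marker, was called in both Thy1+ WT libraries, but also in all adult ones. Gfra1 and Sall4 were called in neither Thy1+ WT library. Of the c-Kit+ markers, Kit was called in both c-Kit+ WT libraries and in every adult one, and Stra8 in neither c-Kit+ WT library. Dmrtb1 was called in every adult and no spermatogonial library. Each pachytene marker was called in all adult libraries, so these calls did not tell PS from RS.

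No sperm ADAM promoter was called in any spermatogonial library, WT or KO. In adult cells, 12 of the 21 were called in PS KO replicate 1, 7 in PS KO replicate 2 and 13 in each RS KO library. A set of 7, Adam1b, Adam2, Adam3, Adam5, Adam18, Adam30 and Adam32, was called in all 4 adult libraries and in none of the 8 spermatogonial ones. Of all 17830 genes listed alone in an H3K27ac table, 5.85% had that pattern. The same pattern was seen at 0 of the 12 somatic ADAM promoters. Adult libraries held more peaks, and calls were more frequent in them at the listed genes as a whole. Of these genes, 72.5% to 76.6% were called in an adult library and 55.7% to 68.3% in a spermatogonial one. None of the ADAM promoters was called in any of the 16 inputs.

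**Figure D1:**
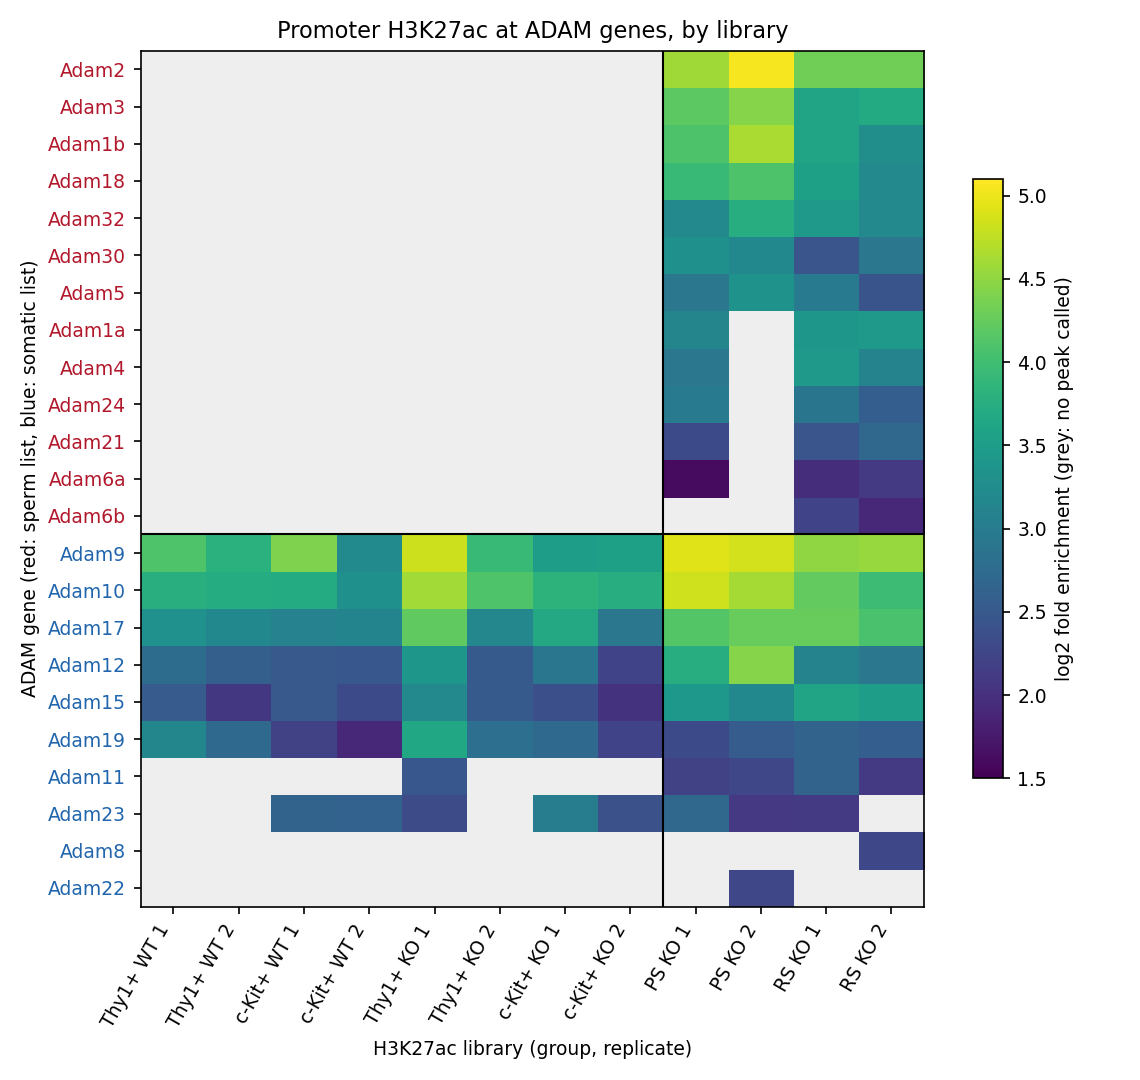
Promoter H3K27ac at the 23 ADAM genes with a promoter peak in at least 1 library. Columns are the 12 H3K27ac libraries, rows are genes (red names: sperm list; blue names: somatic list), and the colour is the log2 fold enrichment of the highest promoter peak; grey cells were not called. The sperm rows are filled only in the 4 adult columns on the right, and 6 somatic rows are filled in all 12.

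Adam2 encodes fertilin beta, the partner of both Adam1 proteins. Its promoter reached a fold enrichment of 24.0 and 33.1 in PS KO and of 19.9 and 20.0 in RS KO. These are the highest values of any sperm ADAM in each of the 4 libraries, and the 2 groups do not overlap. Adam3 encodes cyritestin, the surface protein whose loss accompanies most defects of sperm ADAM maturation, and stood at 18.3 and 21.9 in PS KO against 12.1 and 13.0 in RS KO. Adam1b, whose product joins Adam2 on the sperm surface, stood at 17.2 and 25.1 in PS KO and at 12.1 and 9.74 in RS KO. Both PS libraries thus lay above both RS libraries at each of these 3 promoters. The same held for 51.6% of all 21329 regions of overlapping peaks called in each of the 4 libraries.

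Adam18 followed with 15.3 and 17.1 in PS KO and 11.7 and 9.20 in RS KO, again without overlap. Adam30, a gene expressed in testis, had 9.91 and 9.06 in PS KO and 5.48 and 7.57 in RS KO, also without overlap. Adam32 had 9.15 and 13.3 in PS KO against 11.0 and 9.20 in RS KO. Adam5, which forms surface complexes with other sperm ADAMs, had 7.63 and 10.1 in PS KO against 7.82 and 5.41 in RS KO. The groups overlapped at the last 2 genes.

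Another 6 sperm ADAM promoters were called in only part of the adult libraries. Adam1a, whose product pairs with Adam2 in the endoplasmic reticulum, had 8.77 in PS KO replicate 1 and 10.6 and 10.8 in RS KO. Adam4 had 7.63 in PS KO replicate 1 and 11.0 and 8.66 in RS KO. Adam24, which encodes a testis protease, had 8.01 in PS KO replicate 1 and 7.43 and 5.95 in RS KO. PS KO replicate 2 lacked a call at all of these. The same held for Adam21, with 4.96 in PS KO replicate 1 and 5.48 and 6.49 in RS KO. Adam6a, with 3.05 in PS KO replicate 1 and 3.91 and 4.33 in RS KO, sat at the lowest fold enrichment of any peak in that PS library. Adam6b was called in RS KO only, at 4.69 and 3.79.

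Missing calls in PS KO replicate 2 decided how many promoters were called in every adult library: without that library, 12 sperm ADAM promoters in place of 7 had the adult pattern, a setting chosen after seeing the data. Its background height was 0.876, against 1.62 in PS KO replicate 1, but RS KO replicate 2, at 0.849, had 13 calls. The part of depth in these missing calls was not tested.

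No promoter peak was called in any library at 8 sperm ADAMs: Adam20, Adam25, Adam26a, Adam26b, Adam29, Adam34, Adam34l and Adam39. For 6 of them, and for the somatic Adam28, no line of any H3K27ac table named the gene, and no peak lay within the gene or 1 kb around it. Most of them form 2 groups on chromosome 8. Adam26b, Adam26a, Adam34 and Adam34l, over 183.6 kb, held 0 peaks of any kind in the 12 libraries. Adam24, Adam25, Adam20 and Adam39, over 151.8 kb, held 10 peaks, all in adult libraries, of which 9 were assigned to Adam24.

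The promoters of Adam20 and Adam25 are nearly the same sequence: 94.7% of their bases were identical, against a median of 60.3% over 55 pairs of sperm ADAM promoters aligned in the same way, and their longest shared run was 88 bases. Adam6a and Adam6b shared a run of 199 bases. Reads from such copies could be lost or assigned to the wrong copy, and how the authors treated them is not given in the sources used here. Values of these 4 genes are therefore uncertain.

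**Figure D2:**
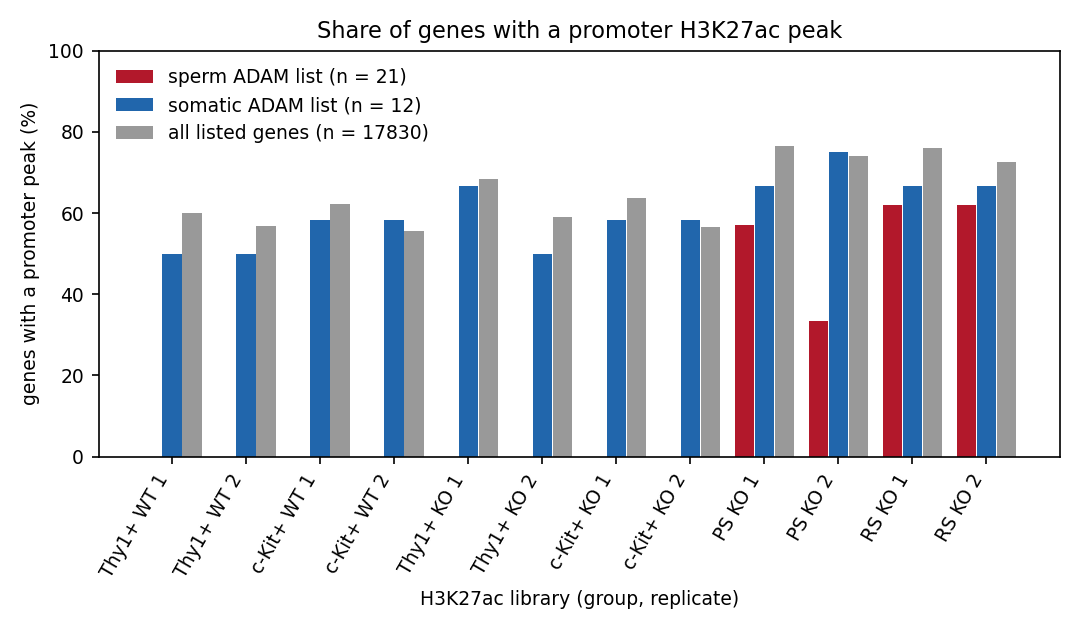
Percent of genes with a promoter H3K27ac peak in each library, for the 21 sperm ADAMs (red), the 12 somatic ADAMs (blue) and all 17830 listed genes (grey). The sperm bars are at 0 in the 8 spermatogonial libraries and reach 57.1%, 33.3%, 61.9% and 61.9% in the 4 adult ones, whereas the somatic bars stand for 6 to 9 of 12 genes in every library. The ADAM lists include genes that no table line names, so the shares have different bases.

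Among the somatic ADAMs, 6 of 12 promoters were called in all 12 libraries: Adam9, Adam10, Adam12, Adam15, Adam17 and Adam19. Of all listed genes, 49.1% were called in every library. With stricter peaks (a −log10 q of at least 5), 3 of the 6 were called in every library.

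Adam10 encodes the protease that cuts Notch receptors at the cell surface. Its promoter stood at 13.6 and 13.3 in Thy1+ WT, 13.1 and 9.92 in c-Kit+ WT, 24.3 and 17.3 in Thy1+ KO and 14.2 and 13.4 in c-Kit+ KO, and at 28.6 and 24.5 in PS KO and 18.8 and 15.7 in RS KO. Thy1+ KO replicate 1 was the highest spermatogonial library. Adam17, the tumour necrosis factor alpha converting enzyme, stood at 9.96 and 9.05 in Thy1+ WT, 8.55 and 8.68 in c-Kit+ WT, 18.7 and 8.95 in Thy1+ KO, 12.8 and 7.58 in c-Kit+ KO, 17.5 and 19.2 in PS KO and 19.2 and 16.8 in RS KO. The same library was again the highest of the spermatogonia, and it overlapped the adult range.

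Adam9, a broadly expressed protease, had 17.3 and 13.9 in Thy1+ WT, 21.1 and 9.30 in c-Kit+ WT, 28.4 and 15.3 in Thy1+ KO, 11.3 and 11.7 in c-Kit+ KO, 30.5 and 28.8 in PS KO and 22.7 and 23.3 in RS KO. Its start lies 289 bp from the start of Tm2d2, and the mark of the 2 genes cannot be told apart there. Adam15, metargidin, had 4.08 to 9.11 over the 8 spermatogonial libraries and 10.7 and 9.06 in PS KO and 12.1 and 11.4 in RS KO.

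Adam12 and Adam19 encode meltrins, proteases known from muscle, bone and heart. Adam12 had 6.81 and 6.03 in Thy1+ WT, 5.70 and 5.58 in c-Kit+ WT, 10.6 and 5.76 in Thy1+ KO, 7.57 and 4.66 in c-Kit+ KO, 13.3 and 21.9 in PS KO and 8.61 and 7.57 in RS KO, so that PS KO lay above every other library. Adam19 had 8.91 and 6.64 in Thy1+ WT, 4.56 and 3.72 in c-Kit+ WT, 12.7 and 7.04 in Thy1+ KO, 6.62 and 4.66 in c-Kit+ KO, 4.96 and 5.86 in PS KO and 6.26 and 5.95 in RS KO. Within each genotype, both Thy1+ libraries lay above both c-Kit+ libraries at this promoter. The share of all promoters with that order was not counted, nor the share with the order seen at Adam12.

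The ADAMs without protease activity differed among themselves. Adam23 was called at 6.27 and 6.20 in c-Kit+ WT, 8.04 and 5.25 in c-Kit+ KO, 5.06 in Thy1+ KO replicate 1, 6.48 and 4.27 in PS KO and 4.30 in RS KO replicate 1. It was thus called in both c-Kit+ groups and missing from both Thy1+ WT libraries. Adam11 was called in Thy1+ KO replicate 1 at 5.57, in PS KO at 4.58 and 4.80 and in RS KO at 6.26 and 4.33. Adam22 was called only in PS KO replicate 2. Adam8, known from immune cells, was called only in RS KO replicate 2, and Adam28 and Adam33 in none.

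Promoter peaks were longer in adult cells at the somatic ADAMs called at both ages, except Adam23 (296.0 against 534.0 bp). The median promoter peak of Adam10 spanned 1940.5 bp over the 4 adult libraries and 1277.5 bp over the 8 spermatogonial ones, and that of Adam9 spanned 2531.5 and 642.5 bp. Among sperm ADAMs, median lengths in adult cells ran from 274.0 bp (Adam6b) to 2277.5 bp (Adam2). Peak length follows the authors' threshold and was not tested.

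Reference promoters, 250 bases before to 50 after the RefSeq start (GRCm38.p6), were found for 11 sperm and 7 somatic ADAM genes. The sperm promoters were poor in CpG: the ratio of observed to expected CpG had a median of 0.073 and ran from 0.0 to 0.357, and GC content had a median of 39.3%. In the promoters nearest the listed start of the somatic genes, the ratio had a median of 0.816 and ran from 0.294 to 0.879, with a median GC content of 66.3%. Over all 9 promoters of these 7 somatic genes, alternative starts included, the medians were 0.576 and 65.3%. Those over all 32851 mouse promoters, also with alternative starts, were 0.384 and 52.7%. Promoters of all genes with the adult pattern had a median ratio of 0.304 and those called in every library 0.804. Of the 7 sperm ADAMs with the adult pattern, only Adam1b was among the 11 with a reference promoter. Its RefSeq start lay 455 bp from the listed one. Also among the 11, Adam20, Adam25, Adam26b, Adam29, Adam34 and Adam34l had no promoter peak in any library. The following sequences show the contrast between a promoter called in every library (Adam17), 2 called in adult cells only (Adam1a and Adam21) and the near copies without a call (Adam25 and Adam20). They are printed 5′ to 3′ on the gene's strand, with each CG in capitals. The Adam17 window, chr12:21373583-21373882 on the − strand, holds 30 CG. Adam1a (chr5:121521646-121521945, − strand) holds 4 and Adam21 (chr12:81568425-81568724, − strand) 0, whereas Adam25 (chr8:40751958-40752257, + strand) and Adam20 (chr8:40793023-40793322, + strand) hold 1 each.
Adam17: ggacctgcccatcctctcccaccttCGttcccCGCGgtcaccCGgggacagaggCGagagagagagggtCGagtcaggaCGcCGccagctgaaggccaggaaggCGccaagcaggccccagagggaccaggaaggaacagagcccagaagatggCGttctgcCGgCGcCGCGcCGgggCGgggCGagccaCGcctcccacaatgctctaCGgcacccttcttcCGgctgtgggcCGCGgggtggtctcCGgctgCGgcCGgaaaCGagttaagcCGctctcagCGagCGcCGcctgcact
Adam1a: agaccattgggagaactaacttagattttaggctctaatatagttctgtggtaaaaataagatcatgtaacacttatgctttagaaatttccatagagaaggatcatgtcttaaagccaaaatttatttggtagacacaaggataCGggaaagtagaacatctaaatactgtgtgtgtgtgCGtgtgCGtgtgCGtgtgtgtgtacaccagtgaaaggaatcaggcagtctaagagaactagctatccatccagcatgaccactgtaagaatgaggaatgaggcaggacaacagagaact
Adam21: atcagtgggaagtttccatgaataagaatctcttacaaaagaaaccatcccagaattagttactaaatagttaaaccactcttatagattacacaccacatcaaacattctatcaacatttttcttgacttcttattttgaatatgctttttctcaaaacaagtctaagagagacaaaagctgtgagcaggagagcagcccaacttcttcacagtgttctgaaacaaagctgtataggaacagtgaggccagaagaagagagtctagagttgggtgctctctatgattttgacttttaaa
Adam25: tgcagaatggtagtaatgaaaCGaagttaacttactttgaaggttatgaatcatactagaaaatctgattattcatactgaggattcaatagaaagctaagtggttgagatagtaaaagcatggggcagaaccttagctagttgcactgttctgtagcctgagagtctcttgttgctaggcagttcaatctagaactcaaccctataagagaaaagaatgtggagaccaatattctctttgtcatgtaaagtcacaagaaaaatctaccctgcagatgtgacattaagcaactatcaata
Adam20: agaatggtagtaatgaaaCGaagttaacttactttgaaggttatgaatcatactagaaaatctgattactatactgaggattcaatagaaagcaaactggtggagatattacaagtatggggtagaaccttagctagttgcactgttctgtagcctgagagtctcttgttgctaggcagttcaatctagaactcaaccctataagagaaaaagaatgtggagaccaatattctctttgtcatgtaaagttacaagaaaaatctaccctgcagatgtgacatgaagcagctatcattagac

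**Figure D3:**
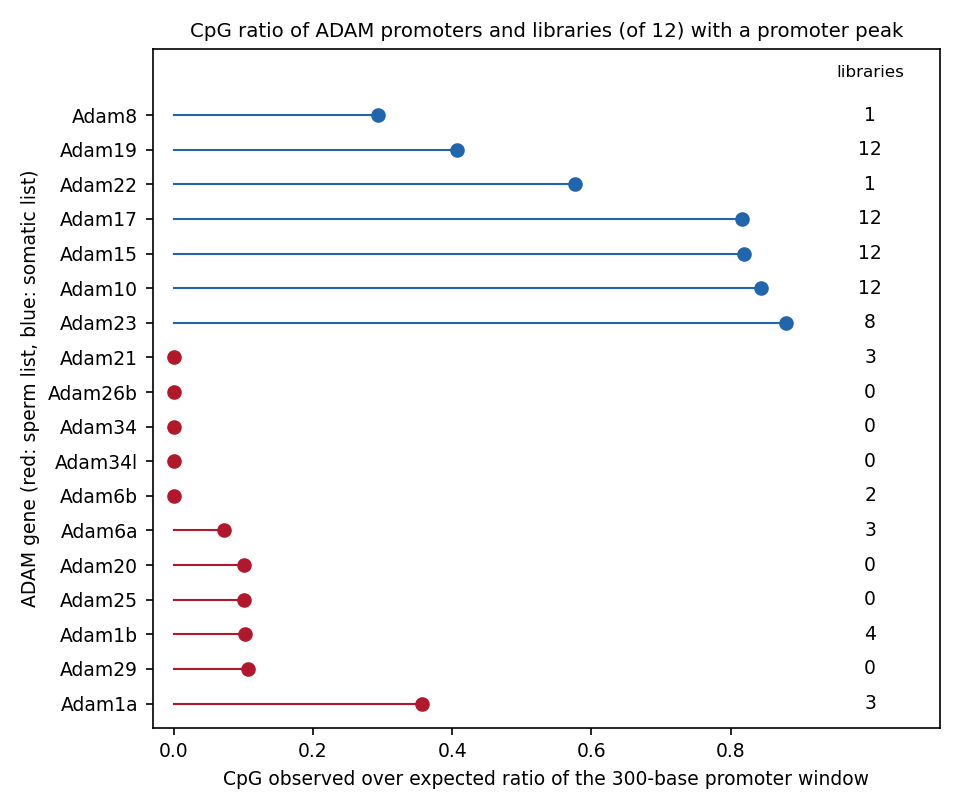
Observed over expected CpG ratio of the 300-base promoter window of 18 ADAM genes (red: sperm list; blue: somatic list), with the number of H3K27ac libraries, of 12, that had a promoter peak at the right. All 11 sperm promoters lie at or below 0.357, and of the somatic ones Adam8, at 0.294, lies below that value.

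Short motifs were searched on both strands of these windows, except TATAAA on the gene's strand only. TGACGT, the core of a cAMP response element, was in 0 of 11 sperm ADAM promoters and in 7.51% of all promoters. GGCAGTT, a MYB motif, was in 2, the copies Adam20 and Adam25, against 4.12% of all. GTTGCC, part of the site of RFX factors, was in 2, Adam26b and Adam34l, against 12.5% of all. TATAAA was in 1, Adam29, against 8.32%. The GC box GGGCGG was in 0 sperm promoters and in 5 of the 9 promoters of somatic ADAM genes, against 35.7% of all. GGGCGG contains a CG, so its count follows the CpG content. A match is only a match of letters.

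To compare adult and spermatogonial cells at the same genotype, promoters called in at least 4 of the 8 KO libraries were fitted together in limma, with an uncalled library set to its lowest fold enrichment. The median over promoters called in all 8 was subtracted from each library, since it lay 0.695 log2 units higher in adult libraries; changes are relative to it. Of 15 ADAM promoters tested, 5 were higher in adult cells and 2 lower at a Benjamini-Hochberg adjusted p under 0.05, beside 17.0% higher and 22.6% lower (39.5% in either direction) of 12858 promoters. The 5 were all sperm ADAMs and the 2 were both somatic ADAMs. The 7 sperm ADAM promoters had entered only through their calls in adult cells, with all 4 spermatogonial values set. The fit was thus tilted towards higher adult values at them. Their count is a description and supports nothing.

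The differences of these 7 from the set values were 2.05 log2 units at Adam2, 1.47 at Adam3, 1.39 at Adam1b, 1.17 at Adam18, 0.88 at Adam32, 0.45 at Adam30 and 0.40 at Adam5, given without a test because the spermatogonial side was not measured. At the somatic Adam19, in contrast, no value was set, and it fell by 1.03 (SE 0.125, limma adjusted p = 0.000234). Adam23 fell by 0.97 (SE 0.169, adjusted p = 0.00158), with 2 values set. Adam9, Adam10, Adam11, Adam12, Adam15 and Adam17 did not pass the test, at -0.38 to 0.20.

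Without centring, 11 of the 15 ADAM promoters were higher and 0 lower, beside 7409 higher and 267 lower of all 12858 promoters. Of all calls, 96.5% were then higher in place of 43.0%. Adam17 turned from -0.01 to 0.68, and Adam19 and Adam23 stood at -0.34 and -0.27 and no longer passed the test. The spermatogonial values of the 7 sperm ADAM promoters were set in this setting as well. Leaving out any 1 of the 4 adult libraries took the sperm ADAMs below 4 called libraries and left 2 calls.

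PS KO was compared with c-Kit+ KO over regions with a peak in all 4 libraries. Each region merged overlapping peaks, and the median region was 1.08 log2 units higher in PS before centring. The 9 ADAM regions tested all belonged to somatic ADAMs; 1 was higher and 3 lower in PS, beside 6.83% higher and 25.1% lower (31.9% in either direction) of 12501 regions. The Adam23 promoter fell by 1.38 (SE 0.233, limma adjusted p = 0.000913). A region in an Adam12 intron (chr7:134114564-134115607), 109490 bp from the start, fell by 1.00 (SE 0.193, adjusted p = 0.00195). A region upstream of Adam8 (chr7:139993929-139994813), whose peaks were assigned to 6430531B16Rik as well, fell by 0.80 (SE 0.228, adjusted p = 0.0175). These falls are relative to the median region. Before centring, the Adam23 promoter had 8.04 and 5.25 in c-Kit+ KO and 6.48 and 4.27 in PS KO. The Adam12 region had 5.68 and 4.08 against 5.34 and 4.80, and the Adam8 region 5.68 and 4.08 against 4.58 and 7.46. The groups overlap at all 3.

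The region that was higher, at the far end of Adam8 (chr7:139977407-139980268), had fold enrichments of 5.20 and 4.66 in c-Kit+ KO and 19.4 and 17.6 in PS KO (log2 change 0.83, SE 0.196, adjusted p = 0.00621). Over all libraries, 12 of the peaks in this region were assigned to 6430531B16Rik and 2 to Adam8. Those 2 were in c-Kit+ WT replicate 1, at 3.42, and PS KO replicate 2, at 5.86, so the values above come from 6430531B16Rik peaks. The region entered this comparison as an ADAM region only through a PS peak. Its call therefore supports nothing about Adam8. With quantile normalization 1 of the 4 calls was left, and 49.2% of all calls were higher in place of 21.4%. Without c-Kit+ KO replicate 2 no ADAM region was called, and without c-Kit+ KO replicate 1, 6 were.

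RS KO and PS KO shared 22 tested ADAM regions, of which 3 were higher and 2 lower in RS, beside 12.4% higher and 7.79% lower (20.2% in either direction) of 21329 regions. The comparison shares the PS KO libraries with the one above. The Adam1b promoter fell by 0.74 (SE 0.218, limma adjusted p = 0.0414) and the Adam12 promoter by 0.89 (SE 0.241, adjusted p = 0.0306). Those that rose lay outside ADAM promoters. At the far end of Adam1a (chr5:121518551-121520035, exon), 8.39 and 5.86 in PS KO stood against 13.3 and 11.4 in RS KO (log2 change 1.00, SE 0.232, adjusted p = 0.0178). Upstream of Adam1a (chr5:121524261-121527305), where 7 peaks were assigned to Mapkapk5 and 1 to Adam1a, 5.34 and 5.86 stood against 12.5 and 11.9 (1.32, SE 0.196, adjusted p = 0.00788). The Adam1a peak was in RS KO replicate 2, at 4.87, so these values come from Mapkapk5 peaks. The region entered as an ADAM region only through RS, and its call supports nothing about Adam1a. In an Adam17 intron (chr12:21368318-21370256), 5.34 and 4.80 stood against 8.61 and 7.57 (0.87, SE 0.197, adjusted p = 0.0167).

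Both genes of the Adam1 pair on chromosome 5 thus had a region that passed the test, in opposite directions: Adam1b fell at its promoter and Adam1a rose over its exon. The difference between them was not tested. The Adam1a promoter itself was not tested, for want of a call in PS KO replicate 2. Among the 7 sperm ADAM promoter regions, both PS libraries lay above both RS libraries at 5, and the reverse at 0; over all regions this held for 51.6% and 19.1%. Of 7 somatic ADAM promoter regions, 3 and 2 had these patterns. The calls rested on single libraries: 0 ADAM regions were called without PS KO replicate 2, 2 without RS KO replicate 1 and 2 without RS KO replicate 2. Adam1b also missed the threshold with quantile normalization, at -0.63.

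**Figure D4:**
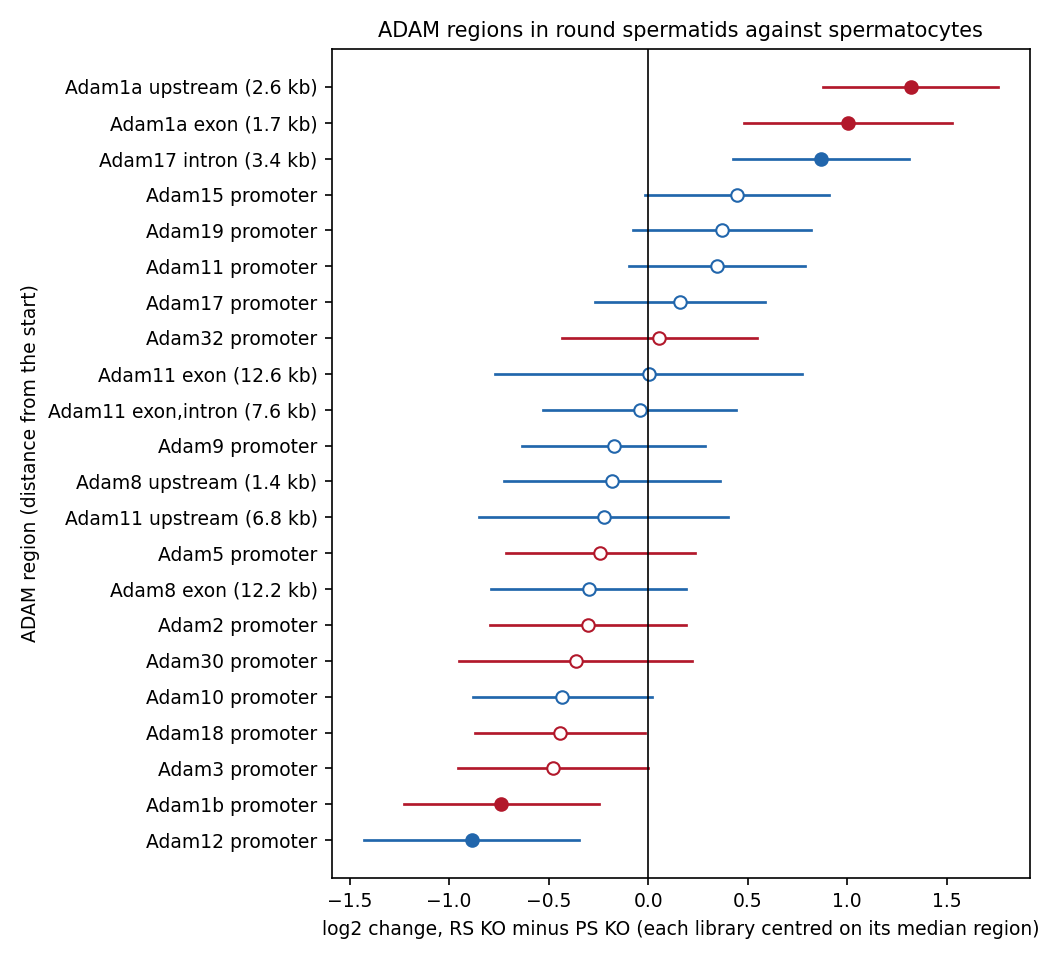
Change of the 22 ADAM regions tested between RS KO and PS KO (2 libraries each), as log2 change with its 95% confidence interval from limma; red, sperm ADAMs; blue, somatic ADAMs; filled points passed an adjusted p under 0.05. Of the filled points, 3 lie at the top between 0.87 and 1.32 and 2 at the bottom, at -0.74 and -0.89. The point at 1.32 is the region upstream of Adam1a, where 7 peaks were assigned to Mapkapk5.

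The knockout was compared with wild type within spermatogonia only. No ADAM region was called in limma in Thy1+ cells (0 of 8, beside 0.00923% of 10835 regions) or in c-Kit+ cells (0 of 7, beside 0.0% of 11313), and none had an unadjusted p under 0.05. The changes ran from -0.25 to 0.15 in Thy1+ cells and from -0.43 to 0.20 in c-Kit+ cells. At the Adam10 promoter the change was 0.07 (95% confidence interval -0.40 to 0.55) in Thy1+ cells and 0.20 (-0.27 to 0.67) in c-Kit+ cells. Intervals of this width do not show that the genotypes are alike. The values before centring were higher in Thy1+ KO replicate 1 than in either WT library at all 8 regions. How many of all regions had that order was not counted. The median log2 fold enrichment over all regions was 4.02 in this library, against 3.24 and 2.97 in WT. The median region of the Thy1+ KO libraries lay 0.536 log2 units above that of WT.

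The c-Kit+ cells differed from Thy1+ cells at 0 of 7 ADAM regions in WT (beside 0.167% higher and 0.0491% lower, 0.216% in either direction, of 10177 regions) and at 0 of 8 in KO (beside 0.0% of 11134). In WT, 2 had an unadjusted limma p under 0.05. These were the Adam19 promoter, at -0.85 (SE 0.233, adjusted p = 0.12), and the Adam12 intron region, at 0.50 (adjusted p = 0.469). In KO none had one, and the Adam19 promoter stood at -0.26 (adjusted p = 0.693). Without Thy1+ KO replicate 2, 2 ADAM regions were called in KO, both higher in c-Kit+ cells, one of them in Adam19 9068 bp from its start (log2 change 1.27).

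Along chromosome 8, Adam18, Adam3, Adam5, Adam32 and Adam9 follow each other on the same strand over 414.8 kb. The start of Adam32 lies 807 bp from the far end of Adam9. In spermatogonia, this stretch held 15 peaks, and 14 of them lay at the Adam9 start. In adult cells it held 48, among them the promoter peaks of all 5 genes in each of the 4 libraries. The Adam1b and Adam1a pair, over 21.6 kb, held 17 peaks, all of them in adult cells.

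**Figure D5:**
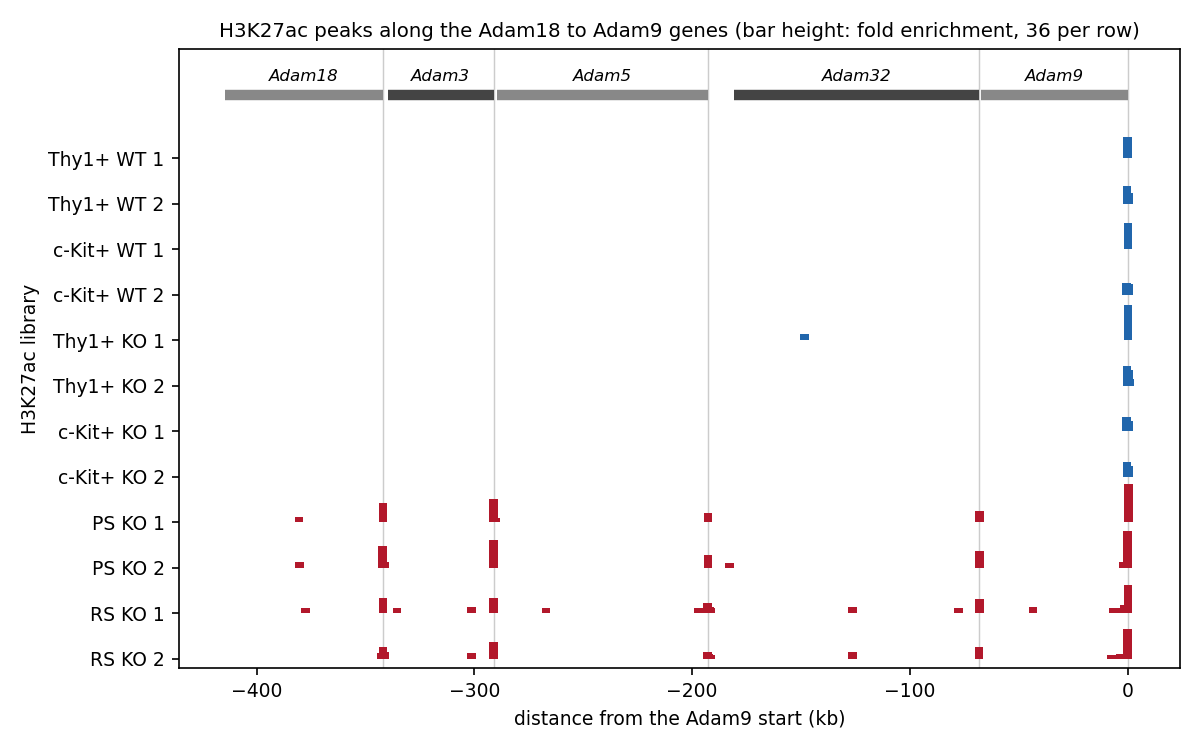
H3K27ac peaks along the genes from Adam18 to Adam9, as distance from the Adam9 start in kb, with 1 row per library (blue: spermatogonia; red: adult). Bar height is fold enrichment, with 36 to a row, bars are drawn 4 kb wide, and grey lines mark the 5 gene starts. Spermatogonial libraries have peaks at the Adam9 start and 1 inside Adam32, and the adult libraries have peaks at all 5 starts.

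Outside promoters, most ADAM peaks lay in introns of somatic members. Adam12 had 85 intronic peaks in 11 libraries. In Thy1+ cells there were 2 and 3 in WT and 23 and 6 in KO. In c-Kit+ cells there were 7 and 2 in WT and 14 and 4 in KO. Each PS KO library had 11, RS KO replicate 1 had 2 and RS KO replicate 2 had 0. All peaks of any gene numbered 34681 and 21286 in Thy1+ KO and 36362 and 22949 in c-Kit+ KO. A single intronic region, 109028 bp from the start (chr7:134113952-134116069), was called in all 8 spermatogonial libraries. Its fold enrichment was 6.81 and 4.83 in Thy1+ WT, 5.70 and 4.96 in c-Kit+ WT, 12.2 and 7.04 in Thy1+ KO and 5.68 and 4.08 in c-Kit+ KO. In PS KO it was 5.34 and 4.80, and it was called in no RS KO library.

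Adam19 had 61 intronic peaks in 11 libraries, with 14 and 8 in RS KO, 4 and 1 in PS KO, and 12 and 5 in Thy1+ KO. It had 5 and 2 in c-Kit+ KO, 5 and 4 in c-Kit+ WT and 1 in Thy1+ WT replicate 2. The intronic Adam17 region that rose in RS was called in 10 of the 12 libraries, at 4.34 to 7.09 in the 6 spermatogonial ones. Over all 12 libraries, ADAM peaks merged into 189 regions. Those in all 4 adult and no spermatogonial library numbered 11, of which 9 belonged to sperm ADAMs and 2 to Adam11. The 9 include the region upstream of Adam1a where 7 peaks were assigned to Mapkapk5. The 11 are 5.82% of the ADAM regions, beside 4.94% of all 129187 regions.

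Other genes linked to sperm ADAMs or to sperm function were read at their promoters from a list of 14, which holds chaperones, testis membrane proteins and proteases. In this list, 7 (Clgn, Pdilt, Cmtm2a, Tex101, Ly6k, Prss55 and Lypd4) had the adult pattern and 2 (Calr3 and Tpst2) were called in all 12 libraries, beside 5.85% and 49.1% of all listed genes. Lypd4, a membrane protein needed for sperm passage into the oviduct, had 23.6 to 26.5 in adult cells and was called in no spermatogonial library. Calr3, the testis calreticulin that assists Adam3 folding, had 14.4 to 27.4 in adult cells and 5.68 to 7.67 in spermatogonia. In the fit of adult against spermatogonial KO cells, 8 of the 11 tested were higher and 0 lower, beside 17.0% and 22.6% of all promoters. Of the 8, 6 (Clgn, Cmtm2a, Ly6k, Lypd4, Pdilt and Tex101) had entered only through their adult calls, with all 4 spermatogonial values set. The fit was thus tilted towards higher adult values at them, and the count supports nothing. Calr3, with a value in every library, rose by 0.97 (SE 0.217, adjusted p = 0.00577). Ace, a peptidase with a testis form, rose by 1.46 (SE 0.157, adjusted p = 0.000137), with 2 values set. Tpst2, a tyrosine sulfating enzyme, and Rnase10, an epididymal protein, stood at 0.01 and 0.14 and did not pass.

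Partners of the somatic proteases were read from a list of 18, which holds carriers of Adam17 and Adam10, tissue inhibitors, proprotein convertases and Notch receptors. Of these, 11 were called in all 12 libraries, beside 49.1% of all listed genes. In the same fit, 2 of 16 tested were higher and 7 lower in adult cells, beside 17.0% and 22.6% of all promoters. Reck, a membrane inhibitor of metalloproteases, rose by 0.67 (SE 0.149, adjusted p = 0.00569), from 5.25 to 14.7 in spermatogonia to 16.8 to 22.5 in adult cells. Furin, which cuts off ADAM prodomains, fell by 0.66 (SE 0.128, adjusted p = 0.00284), and Rhbdf1, a carrier of Adam17, fell by 0.76 (SE 0.13, adjusted p = 0.00134). Pcsk7, another convertase, had 29.2 to 35.7 in adult cells and 11.1 to 32.9 in spermatogonia and did not pass (0.21, adjusted p = 0.248). All 4 changes are relative to the median promoter, which lay 0.695 log2 units higher in adult libraries. Before centring, Furin had 11.8 to 30.4 in spermatogonia and 14.1 to 22.9 in adult cells. Rhbdf1 had 9.33 to 23.8 and 9.20 to 18.1. The groups overlap at both.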

How the data were processed

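Each library had its own table of peaks called by the authors on mm10 (that is, GRCm38); Bowtie and MACS2 are named in the submitters' processing notes, without versions. Per the file headers, a line gives a summit's signal height (pileup), fold enrichment (a ratio) and −log10 p and q, with the nearest RefSeq gene. The deposited fold enrichment equals height plus 1 over a constant background plus 1, so it holds no local control, and read depth is unknown. Of 18737 listed starts, 98.9% lay within 10 bp of the gene in a GRCm38.p6 RefSeq table.

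The highest summit stood for each peak; mitochondrial peaks were left out. Promoter peaks lay within 1 kb of a start listed under the gene alone. Regions were overlapping peaks (1 bp or more) of the libraries compared, kept where called in every library. Log2 fold enrichments, centred on each library's median, were fitted in limma 3.58.1 (R 4.3.3) over all regions or promoters, with Benjamini-Hochberg adjustment; the code was tested on simulated data. Other steps used Python 3.11.15, numpy 2.4.6 and pandas 2.3.3. Every ADAM gene was named, and values in all libraries were given for promoters called in both libraries of a group; from the 2 lists of other genes, those with the 3 highest mean promoter values in adult or spermatogonial cells were named, and Calr3, Furin and Pcsk7 repeat between these ranks. Alternatives were quantile normalization, no centring, uncalled libraries set to their lowest value, stricter peaks, other overlaps and windows, a replicate block and leaving out libraries. The members and gene lists were chosen with earlier results of these data known. The replicate numbers only name samples.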

Additional observations from a re-analysis of the deposited data

Results flagged for a closer look

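At an Adam12 intron, the genotype effects in the 2 kinds of spermatogonia lay in opposite directions, over overlapping regions that were defined separately in each comparison and differ in extent. The Thy1+ region (chr7:134113952-134116069) began 109028 bp from the start, and the c-Kit+ region (chr7:134115199-134115618) 109479 bp. In centred log2 fold enrichment, KO minus WT was 0.154 over the Thy1+ region and -0.426 over the smaller c-Kit+ region, and every KO library deviated from the WT mean in the direction of its own group. Neither value passed the limma test (adjusted p = 0.982 and 0.941), and the difference between them was not tested. Before centring, the Thy1+ values were 6.81 and 4.83 in WT against 12.2 and 7.04 in KO. The c-Kit+ values were 5.70 and 4.96 in WT against 4.26 and 4.08 in KO over the smaller region, and 5.70 and 4.96 against 5.68 and 4.08 over the wider one, where the groups overlap.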

How the results depend on the processing

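Of the ADAM values recomputed under other settings, 593 kept their direction and side of the threshold, 25 lost the threshold, 16 gained it and 52 changed direction. Of the 52, 1 passed the threshold under a setting, Adam17 in adult against spermatogonial KO cells, 0.68 without centring; the other 51, of results at most 0.45 in size, passed under neither. The ADAM calls between adult and spermatogonial KO cells numbered 7, and 11 without centring, 2 with only promoters called in all 8 libraries, and 2 to 9 with 1 library left out. For PS against c-Kit+ KO they numbered 4, and 1 with quantile normalization, 20 with a library's lowest value put where it had no call, 0 with stricter peaks and 0 to 6 with 1 library left out. For RS against PS KO they numbered 5, and 14 with such values put in, 1 with stricter peaks and 0 to 5 with 1 library left out. For c-Kit+ against Thy1+ KO they numbered 0, and 0 to 2 with 1 library left out, the 2 without Thy1+ KO replicate 2. A group left with 1 library was assumed to vary like the others. Where lowest values were put in, regions called in as few as 2 libraries entered. Some could thus enter through 1 group alone, with the other group set, so the counts of 20 and 14 support nothing. The sperm ADAM promoters with the adult pattern numbered 7, and 7 to 12 with a replicate left out (12 without PS KO replicate 2 alone); the somatic ones numbered 0, and 0 to 1. Somatic ADAM promoters called in every library numbered 6, and 3 with stricter peaks. The cause of these moves was not tested, except that leaving out an adult library removes the sperm ADAM promoters from the adult fit.

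Same-numbered libraries deviated together weakly (correlations across regions or promoters from -0.0773 to 0.303), so replicate numbers were not taken as pairs. With the replicate block, 1 ADAM region was called between c-Kit+ and Thy1+ WT in place of 0, the Adam19 promoter (-0.85, limma adjusted p = 0.0491); the other 6 counts were the same. Depth is unknown and limits every missing call.

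In the adult comparison, direction changed without centring at Adam10 (0.34) and Adam11 (0.32), and with stricter peaks at Adam17 (0.013), Adam30 (-0.22) and Adam5 (-0.27). With an overlap of 100 bp it changed at Adam23 between genotypes in c-Kit+ cells (0.086) and at Adam15 between WT stages (-0.14). Quantile normalization changed it at Adam12 between KO stages (-0.038) and in an Adam11 region between RS and PS (-0.16). The other 42 changes came from leaving out 1 library, with these ranges. Between genotypes in Thy1+ cells, Adam17 ran from -0.24 to 0.11, Adam6b from -0.37 to 0.0, Adam15 from -0.035 to 0.13, Adam9 from -0.17 to 0.004 and Adam10 from -0.02 to 0.22. In c-Kit+ cells, Adam23 ran from -0.16 to 0.16, Adam17 from -0.065 to 0.32 and Adam12 from -0.15 to 0.18. Between WT stages, Adam17 ran from -0.32 to 0.057, Adam15 from -0.48 to 0.19 and Adam9 from -0.55 to 0.27. Between KO stages, Adam17 ran from -0.091 to 0.25, Adam12 from -0.051 to 0.23 and Adam10 from -0.28 to 0.084. Between PS and c-Kit+ KO, Adam17 ran from -0.32 to 0.058, Adam15 from -0.084 to 0.20 and Adam10 from -0.24 to 0.062. Between RS and PS KO, 3 Adam11 regions ran from -0.80 to 0.11, -0.25 to 0.12 and -0.73 to 0.58, Adam30 from -0.77 to 0.008, Adam8 from -0.54 to 0.034 and Adam32 from -0.23 to 0.19. Between adult and spermatogonial KO cells, Adam12 ran from -0.067 to 0.25, Adam17 from -0.11 to 0.079 and Adam9 from -0.072 to 0.16. The cause of these changes was not tested.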

Other observations

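Some peaks assigned to ADAM genes lay far from them. Adam6b was the nearest gene of 30 intergenic peaks in 10 libraries, 64087 to 267334 bp from its start, and 15 of them overlapped a peak called in an input library. Adam29 had 6 intergenic peaks about 559 kb away, 1 in each of 6 libraries, and all 6 overlapped input peaks. Adam7 had 10 intergenic peaks in 7 libraries, at least 286705 bp away, and 0 overlapped input peaks. The inputs themselves held 22 peaks assigned to ADAM genes, of which 10 named Adam6b and 8 Adam29.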
